A study of Mus musculus with 9 samples.

Results

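The genes described here are 45 imprinted genes of the mouse, listed by symbol, and all 45 were found among the 53819 gene rows of the count files. By background knowledge 27 of them are expressed from the paternal allele and 17 from the maternal allele, and Gnas is expressed from either allele depending on the transcript. They were measured by RNA sequencing of total RNA from morulae, the compacting embryos that precede the blastocyst, of the strain C57BL/6J. All embryos came from in vitro fertilisation by the Nakagata protocol with CARD media, and the 3 groups differed by the treatment of the sire: Control, 6% EtOH (ethanol) and 10% EtOH, with 3 libraries each. The labels used here give neither the age of the sires nor the number of sires or embryos behind a library, and do not say that the libraries of a group came from separate cultures, so p-values measure the spread between these libraries. The question behind the series is whether alcohol taken by the father before conception changes gene expression in morulae.

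An imprinted gene carries a mark from the egg or the sperm that keeps the copy of 1 parent silent. At most imprinted genes the mark is DNA methylation set in the egg or the sperm and protected in the early embryo by the zinc finger protein ZFP57 and its partner TRIM28, and at a smaller group, to which Sfmbt2, Jade1, Slc38a4 and Gab1 belong, it is the histone mark H3K27me3 laid down in the egg. Many imprinted genes act on fetal and placental growth, with growth-promoting genes such as Igf2 often paternally expressed and growth-restraining genes such as Igf2r, Grb10 and Cdkn1c maternally expressed. All embryos here are of 1 strain, so the counts cannot tell the parental copies apart: the class of a gene is background knowledge, and a level is the sum of both copies. Several of these genes are imprinted only in some tissues, stages or transcripts. Igf2r, for example, is known to be read from both copies before implantation. Which genes count as such was set from background knowledge, and a wider rule would take out more. Without the genes so marked, 15 of the 16 paternally expressed genes tested below remain, but only 3 of the 11 maternally expressed ones. Most tested genes of the maternal class are thus of this kind.

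Library totals ranged from 6263465 to 27619281 counts. Levels are given as CPM, counts scaled to a common library size by the trimmed mean of M-values (TMM), and 12488 genes passed the filter on low counts and were tested. Of 12 embryo markers 11 were at 1 CPM or more in all 9 libraries (Sox2 was the exception), with a summed level of 1489 to 2877 CPM; 9 cumulus and granulosa markers, with Nr5a2 left out because embryos express it, summed to 3.08 CPM or less, with Ptx3, Has2 and Fshr at 0, and the sperm and testis markers to 3.63 CPM or less, with 5 of 8 at 0. The count column of 4 libraries (control 2, 6% EtOH 1, 10% EtOH 1 and 2) has a long header that names the aligner RNA STAR, and that of the other 5 a short one; the labels do not say what this difference stands for. Totals were 19574710 to 27619281 counts in the long-header libraries and 6263465 to 11026334 counts in the short-header ones. A difference between header forms is thus also one between deeper and shallower libraries. The embryo markers summed to 2426 to 2877 CPM in the long-header libraries and to 1489 to 1957 CPM in the short-header ones. Each comparison of treatment groups below was therefore also made within a header form. Only that of 6% EtOH against Control within the short-header libraries has no group of 1 library, so the others are no replicated check.

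The start regions of the genes on which the results turn show how differently they are built. The 250 bases before a transcription start in RefSeq (GRCm38.p6) were used for 38 of the 45 genes, with Impact left out beforehand. The window of Igf2r, whose ethanol libraries all lay above the controls, lies at chr17:12769707-12769956 (minus strand) and holds 27 CpG dinucleotides. Kcnq1ot1, the member with the largest difference between header forms among those at 10 CPM or more, has its window at chr7:143296548-143296797 (minus strand) with 5 CpG dinucleotides. Mest (chr6:30737800-30738049, plus strand, 14 CpG) and Zdbf2 (chr1:63200108-63200357, plus strand, 13 CpG) are shown because they hold the most copies of the hexamer TGCCGC or its reverse complement GCGGCA, the core of the ZFP57 motif; Mest holds 2 and Zdbf2 holds 3, in capitals. For a gene with several starts the window with most copies is shown. Another Zdbf2 window, at chr1:63273019-63273268, holds 0 copies and 26 CpG. Another Mest window, at chr6:30733256-30733505, holds 0 copies and 7 CpG. In all 4 lines the sequence runs 5′ to 3′ on the gene's own strand.
Igf2r: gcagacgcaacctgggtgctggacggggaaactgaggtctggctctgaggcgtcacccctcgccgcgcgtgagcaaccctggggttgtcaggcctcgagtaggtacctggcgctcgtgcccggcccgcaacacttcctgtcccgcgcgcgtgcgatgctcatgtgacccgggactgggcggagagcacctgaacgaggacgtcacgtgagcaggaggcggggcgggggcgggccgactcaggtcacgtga
Kcnq1ot1: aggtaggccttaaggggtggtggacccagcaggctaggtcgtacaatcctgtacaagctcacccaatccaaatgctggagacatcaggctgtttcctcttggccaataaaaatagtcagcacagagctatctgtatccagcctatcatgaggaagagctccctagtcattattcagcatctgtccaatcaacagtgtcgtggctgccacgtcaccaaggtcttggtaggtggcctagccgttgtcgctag
Mest: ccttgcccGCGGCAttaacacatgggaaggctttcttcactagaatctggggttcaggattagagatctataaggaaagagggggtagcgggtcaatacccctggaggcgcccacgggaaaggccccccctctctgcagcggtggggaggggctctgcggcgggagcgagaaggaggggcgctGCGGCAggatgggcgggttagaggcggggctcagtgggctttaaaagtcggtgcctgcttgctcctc
Zdbf2: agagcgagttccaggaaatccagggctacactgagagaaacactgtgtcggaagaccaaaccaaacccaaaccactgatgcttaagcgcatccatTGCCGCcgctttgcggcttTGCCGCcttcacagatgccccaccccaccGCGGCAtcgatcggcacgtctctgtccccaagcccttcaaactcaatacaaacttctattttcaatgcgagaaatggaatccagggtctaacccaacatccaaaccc

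The hexamer, searched on both strands, was present in 7 of the 38 genes (18.4%): Zdbf2, Mest, Mcts2, Nap1l5 and Plagl1 among 23 paternally expressed genes and Meg3 and Zim1 among 14 maternally expressed ones. Of all 27025 genes with a RefSeq promoter, 9.84% held it in at least 1 window of this length. A gene with several windows has more chances of a match, and the hexamer itself holds a CpG. The shares were matched neither for number of windows nor for CpG content, so they are no measure of enrichment. With each gene represented by its window of most CpG dinucleotides, the median number was 14 for the listed genes and 6 for all genes. A match describes these letters only, and the absence of a match in Igf2r and Kcnq1ot1 says nothing of ZFP57, whose binding was not measured.

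Imprinted genes ranged from absent to abundant in morulae. Igf2, the fetal growth factor, its neighbour H19, a noncoding RNA, Dlk1, a membrane protein of the Delta family, and Magel2, a ubiquitin ligase cofactor of the Prader-Willi domain, had no count in any library; 3 counts over all libraries, 0.0219 CPM, is the level that a count of 0 still allows, for counting error only. For Igf2 this level may be too low: in GENCODE M21, 64.5% of its exons are shared with other genes, Gm49394 on the same strand among them. How reads in shared exons were counted is not stated. Airn, the noncoding RNA that silences Igf2r later in development, and the potassium channel gene Kcnq1 had 1 count in all 9 libraries together, and Zim1 and Slc22a18 had 2. In all, 12 of the 45 genes (8 paternally, 4 maternally expressed) were below 1 CPM in every library and 16 (11 paternally, 5 maternally expressed) were at 1 CPM or more in every library. These are 26.7% and 35.6% of the 45 genes, beside 69.1% and 13.5% of all rows of the count files, 27209 of which have no count in any library. The filter kept 16 paternally and 11 maternally expressed genes for testing. The other 18, among them the Prader-Willi genes Ndn, Magel2, Mkrn3 and Peg12, the growth-linked zinc finger gene Plagl1, the placental growth restrainer Phlda2 and Gnas, which encodes a G protein subunit, had no mean above 0.719 CPM. Gnas was at 0.571, 0.506 and 0.147 CPM in controls, 0.127, 0 and 0.110 CPM in 6% EtOH and 0.418, 0.256 and 4.33 CPM in 10% EtOH, the last being the highest value of any of the 18 in any library. The 10% EtOH libraries of Gnas lay above the 6% EtOH ones without overlap, at 79 counts over all libraries, with no test because of the filter.

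**Figure D1:**
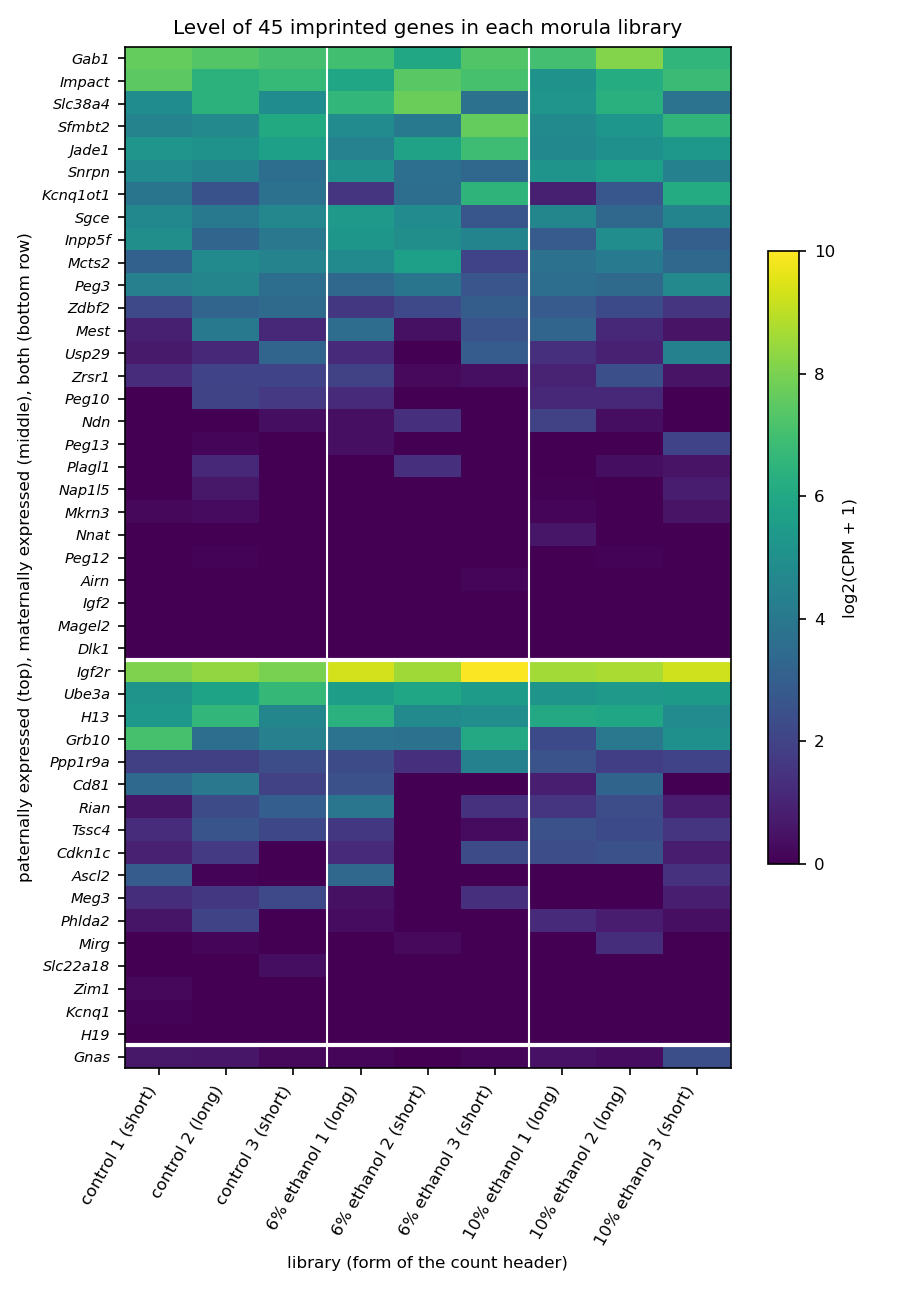
Level of the 45 imprinted genes (rows; paternally expressed at the top, maternally expressed in the middle, Gnas at the bottom) in each of the 9 libraries (columns, with the header form in brackets), as log2(CPM + 1). Igf2r is the brightest row, and the lower rows of each class, with Igf2, Magel2, Dlk1 and H19 at 0, stay dark in all libraries.

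Per kilobase of annotated exon, which allows levels to be compared between genes, Igf2r stood highest, at a mean of 51.3 CPM per kb over the 9 libraries. Over all libraries it was followed by Gab1 (29.3), Mcts2 (20.9), Impact (20.6), Slc38a4 (15.6) and Snrpn (11.3 CPM per kb). The first place rests on the ethanol libraries: Igf2r averaged 71.7 ± 31.96 CPM per kb in 6% EtOH and 51.7 ± 13.6 in 10% EtOH, but 30.5 ± 4.57 in controls, where Gab1 was at 32.1 ± 6.63 (SD, n = 3 each) and the order of the pair is within the spread. Mcts2 and Impact cannot be ordered either, as their means differ by less than their spread (coefficient of variation, SD over mean, 0.726 and 0.469). Mcts2 is an intronless copy of the X-linked translation factor gene Mcts1 that lies inside an intron of H13, and reads could be split between the copies, so its level is uncertain. Kcnq1ot1, with a single exon of 93.1 kb, averaged 0.251 CPM per kb.

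Among the 15 genes with a mean of 10 CPM or more, the coefficient of variation over the 9 libraries ran from 0.389 for Ube3a to 1.40 for Kcnq1ot1. Its median was 0.548, against 0.584 for all 7139 genes at this level. The paternally expressed genes had a median of 0.570 (11 genes) and the maternally expressed ones 0.514 (4 genes).

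Igf2r, the receptor that carries the growth factor IGF2 and lysosomal enzymes to the lysosome, was the tested member with the smallest p for either ethanol group against Control. It was at 271, 332 and 250 CPM in the control libraries, at 645, 382 and 976 CPM in the 6% EtOH libraries and at 395, 423 and 626 CPM in the 10% EtOH libraries. All 6 libraries of ethanol sires lay above all 3 controls, and the 6% and 10% EtOH libraries overlapped. The means were 284 ± 42.6, 668 ± 297 and 481 ± 126 CPM (SD, n = 3 each). The log2 fold change was 1.23 ± 0.44 (SE; edgeR adjusted p = 0.799) for 6% EtOH and 0.76 ± 0.44 (edgeR adjusted p = 0.9999) for 10% EtOH against Control, and 0.996 ± 0.397 (edgeR adjusted p = 0.999) for both ethanol groups together, so none of the comparisons called it after adjustment over all genes. The gap between the groups depends on the scaling: with library totals in place of TMM, the controls were at 300, 390 and 250 CPM and 6% EtOH 2 at 319 CPM, so that the groups overlapped, and the log2 fold changes were 0.94 and 0.64. Within the long-header libraries the log2 fold change was 0.96 for 6% EtOH and 0.30 for 10% EtOH, and within the short-header libraries 1.37 and 1.26. Only the value of 1.37 compares 2 libraries with 2; the other values have a group of 1 library and are no replicated check. Without library 6% EtOH 3 the value for 6% EtOH was 0.83, and without 6% EtOH 2 it was 1.505.

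**Figure D2:**
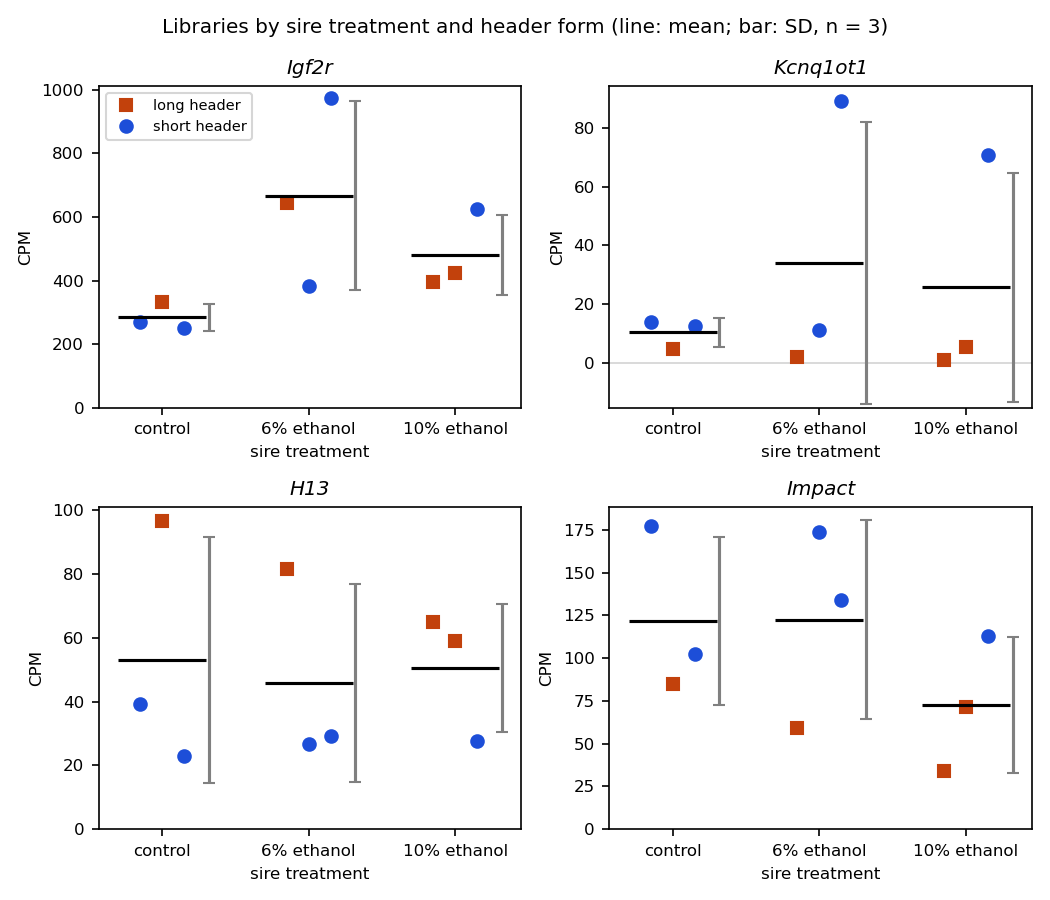
CPM of Igf2r, Kcnq1ot1, H13 and Impact in each library by treatment of the sire, with the header form as colour and marker, the group mean as a line and the SD (n = 3) as a bar. Igf2r is above all 3 controls (250 to 332 CPM) in all 6 ethanol libraries, while Kcnq1ot1, H13 and Impact separate by header form.

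The other maternally expressed genes at 10 CPM or more were Ube3a, Grb10 and H13. Ube3a, the ubiquitin ligase lost in Angelman syndrome, whose imprint is known from neurons, was at 34.8, 54.8 and 99.7 CPM in controls, 46.1, 59.96 and 45.3 CPM in 6% EtOH and 35.5, 41.9 and 42.8 CPM in 10% EtOH. The 3 libraries of 10% EtOH lay just below the 3 of 6% EtOH on the TMM scale and overlapped them on library totals, with a log2 fold change of −0.33 ± 0.56 (SE; edgeR adjusted p = 0.904). Grb10, an adaptor that restrains signalling from the insulin and IGF1 receptors, was at 134, 11.2 and 19.4 CPM in controls, 12.9, 12.4 and 64.7 CPM in 6% EtOH and 3.76, 15.2 and 31.6 CPM in 10% EtOH. Control 1 alone was 2.08 times the next highest library. H13, the signal peptide peptidase, was at 39.4, 96.8 and 23.0 CPM in controls, 81.7, 26.5 and 29.3 CPM in 6% EtOH and 65.0, 58.96 and 27.6 CPM in 10% EtOH, with all groups overlapping.

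Of the Dlk1-Meg3 domain, the noncoding RNA Meg3 was at 1.47, 2.06 and 3.67 CPM in controls, 0.381, 0 and 1.54 CPM in 6% EtOH and 0, 0 and 0.798 CPM in 10% EtOH. The 10% EtOH libraries lay below all controls on TMM and on library totals, at a level of 130 counts over all libraries, and the log2 fold change was −3.26 ± 2.005 (SE; edgeR adjusted p = 0.9999). Its neighbour Rian ranged from 0 to 14.1 CPM with no such separation, and the third noncoding RNA of the domain, Mirg, had 46 counts in all. Cd81, a tetraspanin of the Kcnq1ot1 domain, was at 9.80, 15.1 and 2.93 CPM in controls, 4.53, 0 and 0 CPM in 6% EtOH and 0.784, 8.37 and 0 CPM in 10% EtOH. The 3 libraries at 0 are short-header ones, and the groups overlapped.

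The remaining maternally expressed genes that were tested had means of 5.05 CPM or less. Ppp1r9a, which encodes the actin-binding protein neurabin, ranged from 1.53 to 19.9 CPM, and Tssc4, a splicing-linked gene of the Kcnq1ot1 domain, from 0 to 5.09 CPM. Cdkn1c, the cell cycle inhibitor p57, ranged from 0 to 4.61 CPM. Ascl2, a transcription factor of the trophoblast, was at 6.53 CPM in control 1 and 9.44 CPM in 6% EtOH 1 and at 1.71 CPM or less in the other 7 libraries, 5 of which had none. None of these 4 genes separated the groups in any comparison.

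The 4 paternally expressed genes with the H3K27me3 mark were all at 1 CPM or more in all 9 libraries. Gab1, a docking protein of receptor tyrosine kinases, was at 198, 159 and 131 CPM in controls, 125, 62.3 and 156 CPM in 6% EtOH and 127, 286 and 96.0 CPM in 10% EtOH. Slc38a4, an amino acid transporter of the placenta and liver, was at 28.2, 86.1 and 28.2 CPM, 96.6, 217 and 12.3 CPM, and 35.7, 80.1 and 13.1 CPM in the same order of groups. Both overlapped between all groups, although on library totals the 6% EtOH libraries of Gab1 lay below all controls. Sfmbt2, a Polycomb protein needed in the trophoblast, was at 21.2, 25.2 and 66.4 CPM in controls, 27.4, 15.5 and 198 CPM in 6% EtOH and 26.8, 37.3 and 91.3 CPM in 10% EtOH. Jade1, a subunit of the HBO1 histone acetyltransferase complex, was at 36.0, 34.0 and 49.3 CPM in controls, 20.5, 53.5 and 118 CPM in 6% EtOH and 24.7, 31.4 and 38.8 CPM in 10% EtOH. Single libraries set the extremes: 6% EtOH 3 was 2.17 times the next highest for Sfmbt2, and 6% EtOH 2 was 2.25 times the next for Slc38a4. The median log2 fold change of the 4 genes was 0.89 for 6% EtOH, with 3 of 4 above 0, and −0.04 for 10% EtOH, with 2 of 4 above 0, and edgeR called none of them (adjusted p from 0.856 to 0.886 for 6% EtOH).

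Other paternally expressed genes at 10 CPM or more spanned all groups. Impact, an inhibitor of the stress kinase GCN2, was at 177, 84.9 and 102 CPM in controls, 59.3, 174 and 134 CPM in 6% EtOH and 33.7, 71.2 and 113 CPM in 10% EtOH. Snrpn, which encodes a splicing protein and shares exons with Snurf, was at 27.6, 22.1 and 11.1 CPM in controls, 33.1, 11.5 and 9.47 CPM in 6% EtOH and 35.1, 49.6 and 19.95 CPM in 10% EtOH. Kcnq1ot1, the noncoding RNA that silences its domain on the paternal copy, was at 13.8, 4.66 and 12.5 CPM in controls, 1.90, 11.1 and 89.1 CPM in 6% EtOH and 0.836, 5.52 and 70.6 CPM in 10% EtOH. These 3 genes overlapped between all treatment groups, and the high Kcnq1ot1 libraries of both ethanol groups have short headers.

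Sgce, which encodes ε-sarcoglycan, was at 24.4, 15.4 and 23.8 CPM in controls, 40.5, 27.3 and 5.40 CPM in 6% EtOH and 22.8, 9.54 and 21.9 CPM in 10% EtOH. Inpp5f, a phosphoinositide phosphatase of which only some transcripts are imprinted, was at 29.6, 8.63 and 15.1 CPM, 38.5, 29.4 and 22.0 CPM, and 6.32, 28.7 and 7.18 CPM in the same order. Mcts2 was at 7.68, 25.6 and 21.1 CPM in controls, 26.9, 49.1 and 3.08 CPM in 6% EtOH and 12.5, 16.9 and 9.12 CPM in 10% EtOH. Each of the 3 has an ethanol library above all controls and another below all controls. Peg3, a zinc finger protein, was at 19.6, 22.6 and 11.3 CPM in controls, 9.27, 13.9 and 5.18 CPM in 6% EtOH and 11.1, 9.98 and 25.1 CPM in 10% EtOH, again with overlap.

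Below 10 CPM, Mest, which encodes a hydrolase-like protein, was at 0.816, 15.4 and 1.17 CPM in controls, 10.9, 0.382 and 4.95 CPM in 6% EtOH and 8.57, 1.21 and 0.456 CPM in 10% EtOH. Peg10, a retrotransposon-derived gene of the placenta, was at 0, 3.11 and 2.20 CPM, 1.35, 0 and 0 CPM, and 1.15, 1.24 and 0 CPM in the same order. Neither separated the treatment groups. Zdbf2 was found in all libraries, at 1.94 to 10.1 CPM; Usp29 ranged from 0 to 20.3 CPM and Zrsr1, an intronless copy of an X-linked splicing factor gene whose reads may be split with that gene, from 0.191 to 4.42 CPM. No source used here states how strand was counted, so reads of antisense partners cannot be told apart: in GENCODE M21, Gm44732 covers 30.7% of the Cdkn1c exons, Copg2 23.1% of those of Mest, Nespas and another 22% of those of Gnas, Snhg14 and others 27.3% of those of Ube3a, and Commd1 9.17% of those of Zrsr1, while Igf2r, Grb10, Sfmbt2, Slc38a4, Impact and Peg3 share none.

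Against these values, edgeR's quasi-likelihood test called 0 of the 27 tested imprinted genes for 6% EtOH against Control at an adjusted p under 0.05, and 0% of all tested genes. It also called 0 members and 0% of all genes for 10% EtOH against Control, for 10% against 6% EtOH and for both ethanol groups against Control. DESeq2 called 0 members in each of these comparisons as well, against 0.24%, 0.0801%, 0.248% and 0.136% of all tested genes, and limma voom called 0 members and 0% of all genes. At an unadjusted p under 0.05 edgeR had 1 member, Igf2r, for 6% EtOH (6.24% of all genes), 0 for 10% EtOH (2.14%), 0 for 10% against 6% EtOH (5.33%) and 1, again Igf2r, for both ethanol groups (4.08%). Tested members whose groups did not overlap numbered 1 for 6% EtOH (Igf2r; 7.99% of all tested genes), 2 for 10% EtOH (Igf2r and Meg3; 7.98%), 1 for 10% against 6% EtOH (Ube3a; 9.5%) and 1 for both ethanol groups (Igf2r; 1.79%). The members' shares of 3.70% and 7.41% for 6% and 10% EtOH are not above the share of all genes, and that of 3.70% for both ethanol groups, which is Igf2r alone, stands beside 1.79%. On library totals Igf2r overlapped and Meg3 lay below all controls in all 6 ethanol libraries. On that scale 8.23% of all tested genes did not overlap for 6% EtOH, where Gab1 and Meg3 were the members. The shares were 7.66% for 10% EtOH and 1.94% for both ethanol groups, with Meg3 the only member in each. For both ethanol groups 1.58% of all tested genes were lower and 0.36% higher. With TMM Meg3 overlapped there, as 6% EtOH 3 was at 1.54 CPM and control 1 at 1.47 CPM. The median SE of a member's log2 fold change was 1.03 for either ethanol group against Control, beside 1.02 and 1.01 for all tested genes.

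**Figure D3:**
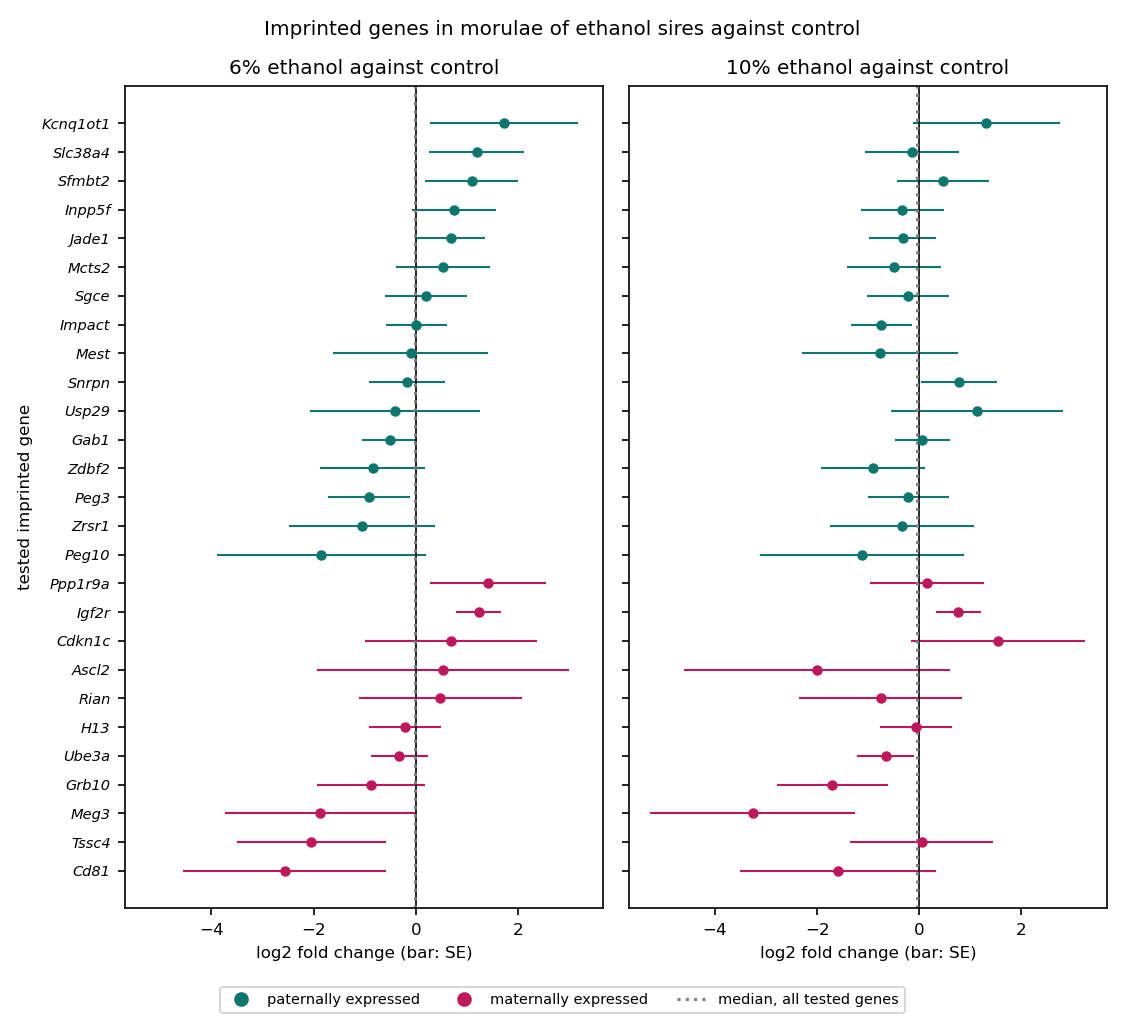
Log2 fold change (point) and SE (bar) of the 27 tested imprinted genes for 6% EtOH (left) and 10% EtOH (right) against Control, with the median of all tested genes as a dotted line. Igf2r has the shortest bar in both panels (1.23 ± 0.44 and 0.76 ± 0.44), and both classes lie on both sides of 0.

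The paternally and the maternally expressed classes were set side by side in each comparison, all of which share the 3 control libraries except that of 10% against 6% EtOH. For 6% EtOH against Control, 8 of 16 paternally expressed genes were above 0 on the log2 scale, with a median of −0.04, and 5 of 11 maternally expressed genes, with a median of −0.21, beside a median of −0.01 and 49.5% above 0 for all tested genes. For 10% EtOH, 5 of 16 and 4 of 11 were above 0, with medians of −0.28 and −0.65, beside −0.05 and 47.1% for all genes. For 10% against 6% EtOH, 6 of 16 and 4 of 11 were above 0, with medians of −0.42 and −0.47, beside −0.02 for all genes. For both ethanol groups against Control, 8 of 16 and 3 of 11 were above 0. The medians there were 0.004 and −0.49, beside −0.03 and 48.6% above 0 for all genes. The difference between the classes was not tested. The sign of the small 6% EtOH medians is not stable: that of the maternal class was 0.17 with counts thinned to the smallest library and −1.28 without library 6% EtOH 1, and that of the paternal class was 0.04 with header form as a term. The maternal median for 10% EtOH stayed below 0 under all 21 alternatives, but its size varied from −0.75 to −0.097. It was −0.097 over the 9 genes with at least 10 counts in 5 libraries, and −0.19 with limma voom. Library totals shifted the median of all genes by −0.27 for 6% EtOH and by −0.12 for 10% EtOH. Relative to the median of all genes on that scale, the paternal and maternal medians were −0.06 and −0.18 for 6% EtOH and −0.21 and −0.56 for 10% EtOH.

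Summed over its 27 genes, the paternal class held 590, 522 and 498 CPM in controls, 498, 672 and 771 CPM in 6% EtOH and 359, 638 and 534 CPM in 10% EtOH, and the groups overlapped. The order of the control and 6% EtOH means depends on the scaling: 537 ± 48.0 against 647 ± 138 CPM with TMM, and 589 ± 81.5 against 574 ± 63.3 CPM on library totals (SD, n = 3 each). Summed over its 17 genes, the maternal class held 503, 529 and 414 CPM in controls, 822, 483 and 1142 CPM in 6% EtOH and 517, 565 and 737 CPM in 10% EtOH. Igf2r made up most of it in every library: 53.8%, 62.7% and 60.5% of the maternal sum in controls, 78.5%, 79.2% and 85.4% in 6% EtOH and 76.4%, 74.9% and 84.9% in 10% EtOH. This share does not depend on the scaling of the libraries, and it was higher in all 6 ethanol libraries than in all 3 controls. It is built from the same Igf2r values as above and from the other 16 genes, so it is no separate result. A like share was not computed for other genes. The other 16 maternally expressed genes held 233, 197 and 163 CPM in controls, 177, 101 and 166 CPM in 6% EtOH and 122, 142 and 111 CPM in 10% EtOH. The 10% EtOH libraries thus lay below all controls without Igf2r and the 6% EtOH libraries overlapped them. This separation was not tested, and a like sum was not computed for other genes. A different gene is the largest part of each control sum. Grb10 in control 1, at 134 CPM, makes up most of the highest of these sums and so lowers the share of Igf2r there. In control 2 it is H13, at 96.8 CPM, which differs by header form, and in control 3 Ube3a, at 99.7 CPM. In bulk libraries, fewer cells that express a gene and less RNA per cell cannot be told apart.

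**Figure D4:**
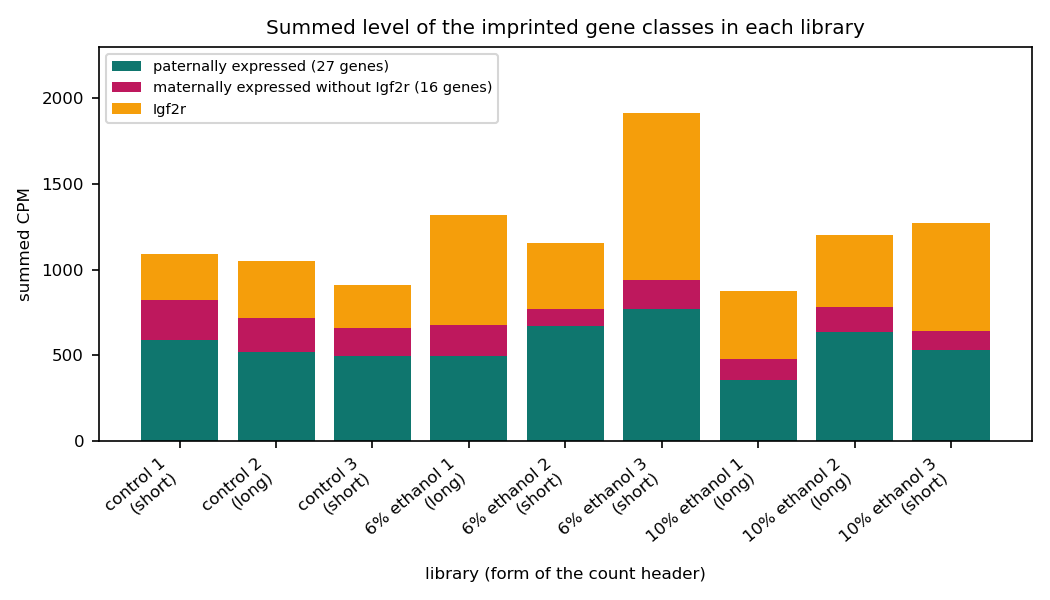
Summed CPM of the paternally expressed genes (27), of the maternally expressed genes without Igf2r (16) and of Igf2r, stacked, in each library. The Igf2r segment spans 250 to 332 CPM in controls against 382 to 976 CPM in the ethanol libraries, while the paternal segment overlaps between the groups.

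As a share of the summed CPM of both classes, the paternal class took 54.0%, 49.7% and 54.6% in controls, 37.7%, 58.2% and 40.3% in 6% EtOH and 41.0%, 53.0% and 42.0% in 10% EtOH. These are shares of reads, which weigh long transcripts more, and the groups overlapped. The means were 52.8% ± 2.70, 45.4% ± 11.2 and 45.3% ± 6.70 (SD, n = 3 each). Without Igf2r the order turned, to 73.2% ± 1.85 in controls, 81.0% ± 6.68 in 6% EtOH and 79.7% ± 4.45 in 10% EtOH, again with overlap (71.7% to 75.3%, 73.8% to 87.0% and 74.6% to 82.8%). The number of genes at 1 CPM or more was 13 to 17 of 27 for the paternal class and 5 to 11 of 17 for the maternal class. The lowest maternal number was in 6% EtOH 2, the library with the smallest total; with all libraries thinned to that total, 6 maternally expressed genes had a count there and 9 to 13 in the other libraries.

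The forms of the count header also differ in depth. Between them, 7 of the 27 tested imprinted genes (25.9%) had an unadjusted p under 0.05, against 14.8% of all tested genes. With treatment as a term, edgeR called 0 members and 0.104% of all genes at an adjusted p under 0.05. H13 was higher in the long-header libraries, at 58.96 to 96.8 CPM against 23.0 to 39.4 CPM, with a log2 difference of 1.45 ± 0.42 (SE; edgeR adjusted p = 0.179). Kcnq1ot1 was lower, at 0.836 to 5.52 CPM against 11.1 to 89.1 CPM, with −3.46 ± 0.98 (SE; edgeR adjusted p = 0.165). Impact, at 33.7 to 84.9 against 102 to 177 CPM, and Jade1, at 20.5 to 34.0 against 36.0 to 118 CPM, were lower in the long-header libraries without overlap as well. These 4 are all tested members without overlap between header forms, on TMM and on library totals alike (9.06% and 8.89% of all tested genes), and Jade1 did not reach an unadjusted p of 0.05 (0.135, edgeR with group as a term; adjusted p = 0.463).

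Of the other members at an unadjusted p under 0.05 for header form, Mest, Cd81 and Peg10 were higher and Grb10 was lower in the long-header libraries, with overlap. Their log2 differences were 3.18 ± 1.11, 5.61 ± 1.87, 4.45 ± 1.92 and −2.003 ± 0.818 (SE; edgeR adjusted p from 0.224 to 0.315). The size rests on single libraries for Cd81 and Peg10. The value of Cd81 was 3.54 without 6% EtOH 1 and 9.01 without control 2. That of Peg10 was 3.16 without 6% EtOH 1, 7.20 without control 2 and 7.93 without control 3. With a library left out, the unadjusted edgeR p reached 0.117 for Mest, 0.153 for Cd81, 0.259 for Peg10 and 0.117 for Grb10. DESeq2 called 4 members for header form, H13, Mest, Cd81 and Kcnq1ot1 (adjusted p = 0.0119, 0.0249, 0.00202 and 0.00170), against 8.22% of all tested genes, and limma voom called Kcnq1ot1 (adjusted p = 0.0417), against 2.43%. The class medians were 0.20 for the paternal and −0.11 for the maternal class, beside 0.10 for all genes; the maternal value was 0.00 on library totals. Igf2r differed by −0.11 ± 0.35 (SE; edgeR adjusted p = 0.907) between header forms.

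Further imprinted genes and the proteins that guard imprints were read from lists of their own. Of 6 other paternally expressed genes in the files 3 were tested, of 22 other maternally expressed genes 9, and of 16 imprint regulators 15, and edgeR called 0 of them in any comparison. For 6% EtOH the numbers above and below 0 were 2 and 1, 3 and 6, and 8 and 7, and for 10% EtOH 0 and 3, 5 and 4, and 4 and 11. The genes of smallest p for 6% EtOH were Dnmt3l, Dppa3 and Dnmt1. Dnmt3l, the cofactor of methylation in the egg, was at 85.7, 72.5 and 21.7 CPM in controls and 27.4, 10.5 and 7.49 CPM in 6% EtOH (log2 −1.98 ± 0.78, SE; edgeR adjusted p = 0.799). Dppa3, which protects the maternal genome from demethylation, was at 1025, 783 and 2253 CPM in controls and 1494, 3393 and 4027 CPM in 6% EtOH (1.13 ± 0.50, SE; edgeR adjusted p = 0.799). Both overlapped between these groups.

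Dnmt1, the maintenance methyltransferase, was at 21.6, 25.3 and 113 CPM in controls, 27.2, 14.5 and 14.0 CPM in 6% EtOH and 12.4, 21.1 and 27.9 CPM in 10% EtOH, with log2 fold changes of −1.52 ± 0.78 and −1.38 ± 0.78 (SE; edgeR adjusted p = 0.804 and 0.9999) and control 3 standing apart. For 10% EtOH the genes of smallest p after Dnmt1 were Trim28 and Tet3. Trim28 was at 286, 372 and 228 CPM in controls and 670, 578 and 285 CPM in 10% EtOH (0.79 ± 0.47, SE), and Tet3, a demethylating dioxygenase, at 22.8, 7.80 and 2.05 CPM in controls and 2.82, 0.110 and 5.13 CPM in 10% EtOH (−2.03 ± 1.59, SE). Both had an edgeR adjusted p of 0.9999 and overlapped. Xist, chosen here after its values were seen, is the noncoding RNA that silences an X chromosome and is expressed from the paternal copy in early embryos. It was at 3.61 to 137 CPM in the long-header libraries and 299 to 1654 CPM in the short-header ones and the header forms did not overlap (log2 −4.52 ± 0.94, SE; edgeR adjusted p = 0.104).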

How the data were processed

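Count columns per gene, 1 file per library, were used as deposited by the authors. Counting with featureCounts on GRCm39/mm39 and the use of DESeq2 are recorded in the submitters' processing notes, and the RNA STAR aligner per the file headers of 4 libraries; versions, strand setting and read filters are not given in the sources used here. The members and gene lists were chosen with earlier results of these data known. In R 4.3.3, edgeR 4.0.16 fitted all 9 libraries with 3 groups (filterByExpr by group, TMM, quasi-likelihood test, Benjamini-Hochberg adjustment over 12488 genes, threshold 0.05); for header form it had group and header as terms. DESeq2 1.42.0, limma 3.58.1 (voom with sample quality weights), RLE factors, library totals, other filters, thinning, header form as a term or within a form, and leaving out each library were alternatives. The edgeR, voom and DESeq2 fits were tested on simulated data with large changes in genes of high counts. That run does not show whether smaller changes, or changes in low genes, would be found. Library totals of 6263465 to 27619281 limit low genes.

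Genes named with their value in each library had a mean of 10 CPM or more, groups without overlap with a group mean of at least 1 CPM, or an unadjusted p under 0.05; of the other imprinted genes and imprint regulators, the 3 of smallest p for each ethanol group were named. Exon lengths and overlaps came from GENCODE M21 (GRCm38) by symbol (45 of 45 matched), promoter windows from RefSeq GRCm38.p6, a build other than that of the counts; neither entered a test.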

Additional observations from a re-analysis of the deposited data

How the results depend on the processing

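The number of imprinted genes called was 0 under all 20 alternatives for 6% EtOH, 10% EtOH and 10% against 6% EtOH and under all 19 for both ethanol groups against Control; the fit of only the groups compared adds nothing to the last. For header form, 0 members called by edgeR became 1 with no filter beyond 1 count (Kcnq1ot1), 4 with DESeq2 and 1 with limma voom, and the cause was not tested. Leaving out each library in turn gave 0 to 0 members called in all 5 comparisons. It moved the median log2 fold change of the paternal class between −0.16 and 0.12 for 6% EtOH and between −0.46 and −0.01 for 10% EtOH, and that of the maternal class between −1.28 and −0.04 and between −0.68 and −0.28. With genes of conditional imprinting left out, the maternal median for 6% EtOH was 0.48 over 3 genes. With at least 10 counts in 5 libraries, the maternal median for 10% EtOH was −0.097 over 9 genes. The paternal sum in controls was 589 CPM on library totals and 537 CPM with TMM, which turned the order of the control and 6% EtOH means. The log2 fold change of Igf2r ranged from 0.83 to 1.505 for 6% EtOH, from 0.30 to 1.26 for 10% EtOH and from 0.63 to 1.32 for both over all alternatives, with adjusted p of 0.297 or more, and the 7 members named for header form kept their direction under all 16. No paired analysis was possible because the labels number no replicates; the numbers used here only name libraries, in accession order. Genes under about 1 CPM rest on few counts, and a change in them may not be detectable at this depth.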
